A study of Mus musculus with 12 samples.

Results

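Mouse embryonic fibroblasts in which loss of the genes Nabp1 and Nabp2 was induced were compared with untreated cells of the same line. The comparison takes 4 of the 12 libraries of the series, all genes included, and 17609 of the 47517 table lines had enough counts to be tested. The first group is 2 libraries (numbers 11 and 12 in the labels) of cells that carry the Rosa-CreERT2 allele, called Cre-positive here, treated with 4-hydroxytamoxifen (4-OHT) for 5 days. The second is 2 libraries (7 and 8) of the same Cre-positive cells labelled untreated. Both groups carry loxP-flanked alleles of both genes, which the labels call Ssb1 and Ssb2 and write as Ssb1 Fl/F; Ssb2 Fl/Fl. Cre-negative cells with Ssb1 Fl/Fl; Ssb2 Fl/Fl alleles, 2 libraries with 4-OHT (5 and 6) and 2 untreated (1 and 2), give the same drug and culture without recombination. Cre-positive cells kept in ethanol, the solvent of the drug, give 2 more libraries (3 and 4), and Cre-negative cells in ethanol the last 2 (9 and 10). All lines came from C57BL/6 embryos at day E13.5 and were immortalised with SV40 large T antigen, a viral protein that inactivates p53 and RB. Deletion, drug, solvent and 5 days of culture were therefore all part of the difference between 4-OHT and untreated Cre-positive cells, and from these 4 libraries alone they cannot be told apart. The labels do not say which exons the loxP sites flank, whether each line is 1 clone, or how long the untreated cells were cultured.

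NABP1 and NABP2 (also called SSB2 and SSB1) are small proteins that bind single-stranded DNA through an OB fold. Either can join INTS3 and INIP to form the SOSS complex, which acts in the repair of DNA breaks, and INTS3 links SOSS to Integrator. Integrator is a large RNA polymerase II-associated complex whose catalytic subunit, INTS11, cleaves the 3′ ends of newly made small nuclear RNAs (snRNAs). U1, U2, U4 and U5 snRNA are made by RNA polymerase II and, with U6 from RNA polymerase III, form the spliceosome, the machine that removes introns. CreERT2 is a recombinase that enters the nucleus when it binds 4-OHT and then cuts out DNA between loxP sites.

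Total counts ran from 20201855 to 36367012 per library over the series, and the 4-OHT libraries were the deepest of the 4 compared. Levels below are CPM, counts scaled to a common library size, after TMM scaling, a correction for library composition. Log2 changes and their standard errors (SE) come from 1 fit over the 12 libraries, with p-values adjusted over all 17609 tested genes (edgeR's quasi-likelihood test, Benjamini-Hochberg, threshold 0.05). Whether the 2 libraries of a group stand for separate cultures is not stated in the labels, and the p-values cover only their spread, which may be technical. With bulk RNA, fewer cells that express a gene and less of its RNA per cell cannot be told apart. The fibroblast genes Col1a1, Col1a2, Col3a1, Pdgfra, Pdgfrb, Vim and Prrx1 had at least 3520 counts in each of the 4 libraries, while Thy1 had at most 3 counts in a library and Dcn, Lum and Fap at most 15. Of all tested genes 21.0% were higher and 18.2% lower in induced than in untreated cells. Of 11 fibroblast markers tested 4 rose and 2 fell; without untreated library 7, 2 rose, and 1 fell by DESeq2 or without untreated library 8 or 4-OHT library 11.

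Both targeted genes fell in the induced cells. Nabp1 (chromosome 1, 51465862 to 51478425, minus strand, GRCm38) had 3.40 and 3.96 CPM with 4-OHT, against 16.1 and 15.2 CPM in untreated cells. Its log2 change was -2.10 (SE 0.106, adjusted p = 4.47e-12). Nabp2 (chromosome 10, 128401395 to 128411492, minus strand) had 4.84 and 5.09 CPM with 4-OHT, against 22.5 and 20.7 CPM untreated, a log2 change of -2.13 (SE 0.0965, adjusted p = 8.75e-13). The groups did not overlap for either gene, and reads on both genes remained after 5 days. In Cre-negative cells the log2 changes were -0.02 for Nabp1 and 0.13 for Nabp2, and neither passed the test.

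Over all tested genes, 3697 (21.0%) were higher and 3204 (18.2%) lower in induced than in untreated cells, 39.2% in all. Most changes were small. A change of at least 2-fold was seen for 481 called genes that were higher (2.73%) and for 223 that were lower (1.27%), and the median over all tested genes was 0.01 on the log2 scale. The count of 2-fold lower genes was 140 without untreated library 8 and 148 without 4-OHT library 11. By DESeq2 5174 genes were called in all, of which 248 were at least 2-fold higher and 101 at least 2-fold lower. With upper-quartile scaling the called genes were 48.9% higher, against 53.6% with TMM, and the share was under 50% in 11 of the 17 alternatives run (48.6% to 49.9%), TMM-scaled ones among them. Which direction was more frequent therefore depended on the setting. In Cre-negative cells 1779 genes (10.1%) were higher and 1609 (9.14%) lower with 4-OHT than untreated.

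Several snRNA gene copies rose more than 4-fold while others fell, and their sequences show how alike these copies are. U1 and U2 are each encoded by several nearly identical gene copies. The copies Rnu1a1 (U1, chromosome 11, 87422867 to 87423030, plus strand) and Gm22513 (U1, chromosome 12, 54696782 to 54696945, plus strand) are printed because the first was higher and the second lower, though they differ at a single base, T60C from Rnu1a1 to Gm22513, counted from the 5′ end. For the U2 copies Rnu2-10 (chromosome 11, 101658238 to 101658428, plus strand) and Gm25939 (chromosome 1, 72255008 to 72255198, plus strand) the same holds, with the differences T69C, C78T and G109C. Capitals mark the bases that differ within each pair. Gm24830 (a U1 copy on chromosome 3, 96328425 to 96328590, plus strand) had the largest change of the U1 copies. Snord118 (U8, chromosome 11, 69073427 to 69073561, plus strand) is a small nucleolar RNA that, unlike most of its kind, is made from its own promoter. Sequences are GENCODE M21 transcripts on GRCm38, and the genes named by Gm numbers and Snord13 were chosen after their values were seen.
Rnu1a1: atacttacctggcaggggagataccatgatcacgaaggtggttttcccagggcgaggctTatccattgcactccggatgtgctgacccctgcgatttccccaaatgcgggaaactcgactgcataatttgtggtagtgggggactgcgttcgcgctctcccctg
Gm22513: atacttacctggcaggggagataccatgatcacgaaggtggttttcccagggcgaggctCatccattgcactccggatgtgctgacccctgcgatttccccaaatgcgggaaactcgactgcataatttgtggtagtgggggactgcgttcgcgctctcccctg
Gm24830: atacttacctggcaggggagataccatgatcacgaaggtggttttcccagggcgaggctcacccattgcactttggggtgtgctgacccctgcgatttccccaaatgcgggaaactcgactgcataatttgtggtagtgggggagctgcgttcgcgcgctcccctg
Rnu2-10: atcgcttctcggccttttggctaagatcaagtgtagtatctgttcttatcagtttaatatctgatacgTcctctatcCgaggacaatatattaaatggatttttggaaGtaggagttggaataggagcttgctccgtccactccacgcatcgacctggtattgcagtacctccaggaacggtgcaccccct
Gm25939: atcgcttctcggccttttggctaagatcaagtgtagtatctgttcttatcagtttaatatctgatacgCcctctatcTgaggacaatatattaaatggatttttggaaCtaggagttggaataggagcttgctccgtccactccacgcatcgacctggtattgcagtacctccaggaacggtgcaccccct
Snord118: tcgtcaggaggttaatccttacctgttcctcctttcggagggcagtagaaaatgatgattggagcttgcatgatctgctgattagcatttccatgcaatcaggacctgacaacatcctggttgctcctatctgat

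Rnu1a1 had 27.0 and 29.9 CPM with 4-OHT, against 3.30 and 3.39 CPM untreated, a log2 change of 3.08 (SE 0.116, adjusted p = 5.11e-14). Rnu2-10 had 46.5 and 44.7 CPM with 4-OHT, against 5.35 and 5.50 CPM untreated (log2 change 3.07, SE 0.0998, adjusted p = 7.69e-15). Rnu5g had 33.0 and 34.8 CPM with 4-OHT, against 5.07 and 5.36 CPM untreated (log2 change 2.70, SE 0.104, adjusted p = 6.10e-14). For these 3 genes both induced libraries lay far above both untreated ones. Gm24830 had 8.12 and 10.2 CPM with 4-OHT, against 0.354 and 0.344 CPM untreated, a log2 change of 4.69 (SE 0.267). The abundant copies Gm22513 and Gm25939 moved the other way. Gm22513 had 172 and 161 CPM with 4-OHT, against 190 and 219 CPM untreated (log2 change -0.29, adjusted p = 0.000243). Gm25939 had 272 and 264 CPM with 4-OHT, against 311 and 355 CPM untreated (log2 change -0.31, adjusted p = 1.96e-05). In each of these 2 copies the induced libraries were lower without overlap, by an amount far smaller than the rise of the other copies. Another abundant U2 copy did not pass, at 77.1 and 76.5 CPM with 4-OHT, against 73.6 and 83.4 CPM untreated (log2 change -0.03, adjusted p = 0.738).

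Of the 63 annotated snRNA genes tested, 22 (34.9%) were higher and 9 (14.3%) lower, beside 21.0% and 18.2% of all tested genes. Without 4-OHT library 11 the lower copies numbered 5. The median log2 change of the 63 was 0.26, against 0.01 over all genes. Copies were placed in a class when their transcript matched the reference snRNA over at least 90% of bases. All 6 U5 copies rose, with log2 changes from 0.32 to 2.70. Of the 12 U2 copies 8 rose and 2 fell, of the 12 U1 copies 5 rose and 1 fell, and of the 11 U6 copies, most of them near 1 CPM or below, 3 rose and 1 fell. The share of U1 counts that lay on the 5 risen copies was 20.9% and 23.8% with 4-OHT, against 2.73% and 2.69% untreated. For U2 the 8 risen copies held 28.5% and 28.7% of counts with 4-OHT, against 6.23% and 6.19% untreated. Summed over its copies, U1 was at 220 and 214 CPM with 4-OHT, against 197 and 229 CPM untreated, and these sums overlapped. The U2 sums also overlapped, at 685.6 and 682.0 CPM with 4-OHT, against 619.1 and 686.3 CPM untreated. U5 summed to 113 and 118 CPM with 4-OHT, against 42.5 and 43.4 CPM untreated. Copies with an identical transcript among the tested copies of their class numbered 4 for U1, 6 for U2 and 7 for U6, so that the split of reads among them is uncertain. Copies that were not tested were not searched. For example Gm22068, a U1 copy identical to Rnu1a1, was given 9.74 and 9.79 CPM with 4-OHT, against 1.61 and 2.26 CPM untreated. U2 copies identical to Rnu2-10 had log2 changes of 0.47, 2.55 and 3.45, against 3.07 for Rnu2-10 itself. The copy at 0.47 was given 14.7 and 16.4 CPM with 4-OHT, against 9.28 and 13.4 CPM untreated. RNA was purified on silica columns, which retain RNAs of this length poorly, and whether reads came from mature or 3′-extended RNA cannot be told apart in gene counts.

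**Figure D1:**
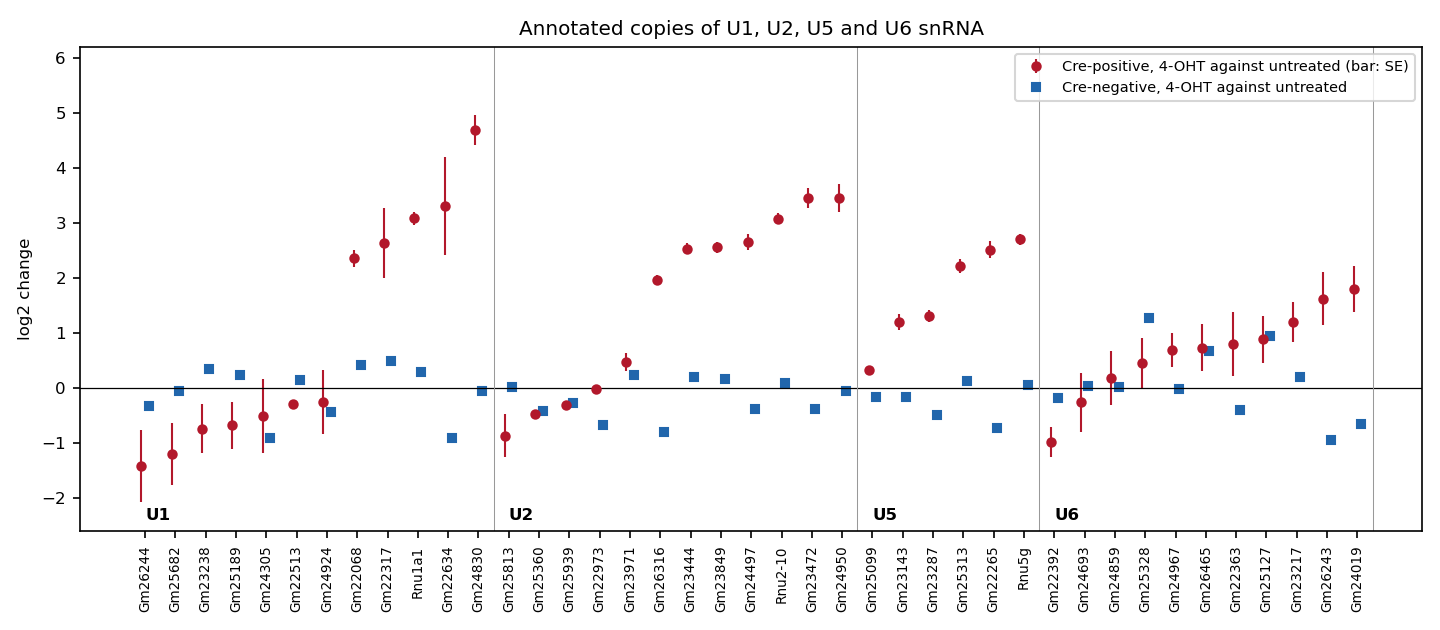
The log2 change between 4-OHT and untreated cells (y axis) is plotted for each annotated copy of U1, U2, U5 and U6 snRNA (x axis, sorted within class), for Cre-positive cells as circles with SE bars and for Cre-negative cells as squares. All 6 U5 copies, 8 of 12 U2 copies and 5 of 12 U1 copies rose in Cre-positive cells, Gm24830 the most at 4.69, while the Cre-negative values of the 22 risen copies lay between -0.95 and 0.48.

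The change of most risen copies differed from that in Cre-negative cells, but not of all. For the U2 copy with a log2 change of 0.47, the difference of changes was 0.24 and did not pass (adjusted p = 0.527). Rnu1a1 had 1.81 and 1.98 CPM in Cre-negative cells with 4-OHT, against 1.59 and 1.54 CPM untreated. The difference of changes, Cre-positive minus Cre-negative, was 2.80 for Rnu1a1 (SE 0.261, adjusted p = 1.40e-07), 2.99 for Rnu2-10, 2.66 for Rnu5g and 4.75 for Gm24830. Over the 63 snRNA genes this test of the difference was passed by 19 in the higher direction and 3 in the lower, beside 12.0% and 11.7% of all genes, and by 6 in the lower direction without Cre-negative 4-OHT library 6. The 19 include an abundant U2 copy that did not rise in Cre-positive cells (log2 change -0.03) and fell by 0.68 in Cre-negative cells. In Cre-negative cells 6 of the 63 fell with 4-OHT, and 3 of these, the U2 copy Gm26316 (log2 change -0.80) and the U5 copies Gm22265 (-0.73) and Gm23287 (-0.49), are among the copies that rose in Cre-positive cells. Gm25939 fell in both lines, by 0.28 in Cre-negative cells, and its difference of changes did not pass (-0.03, adjusted p = 0.791). Gm24407, annotated as an snRNA and not assigned to a class, had 20.1 and 20.6 CPM with 4-OHT, against 46.6 and 58.0 CPM untreated, and its difference of changes was -1.34 (adjusted p = 1.31e-08). Its neighbour Gm24265, of the same length, had 95.8 and 93.8 CPM with 4-OHT, against 108 and 136 CPM untreated, and its difference of changes was -0.41 (adjusted p = 0.00264). No U4 sequence was among the references, so whether these are U4 copies was not tested.

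Small nucleolar RNAs with their own RNA polymerase II promoters were measured beside the snRNAs. U3, the small nucleolar RNA that guides early processing of ribosomal RNA, was higher at Rnu3b1, Rnu3b2, Rnu3b3 and Rnu3b4. Rnu3b1 had 29.2 and 28.5 CPM with 4-OHT, against 7.51 and 7.47 CPM untreated (log2 change 1.95, SE 0.0927). Rnu3b4 rose most, to 7.81 and 8.79 CPM with 4-OHT, against 1.65 and 1.28 CPM untreated. The U3 copies are near-identical, so the split of reads among them is uncertain. Rnu3b2 had at most 1.27 CPM in these 4 libraries and its call was lost without untreated library 8 (adjusted p = 0.0573). Rnu3a, the U3 gene with the most counts, had 423 and 416 CPM with 4-OHT, against 483 and 543 CPM untreated, a fall of 0.29 on the log2 scale. Snord118, whose RNA acts in the maturation of the large ribosomal subunit, had 38.5 and 35.9 CPM with 4-OHT, against 16.3 and 18.4 CPM untreated (log2 change 1.11, SE 0.0793, adjusted p = 6.39e-10). Snord13, which guides acetylation of ribosomal RNA, had 18.8 and 18.4 CPM with 4-OHT, against 6.49 and 8.65 CPM untreated (log2 change 1.32). Both had induced libraries well above the untreated ones, and their differences of changes against Cre-negative cells were 1.36 and 1.55. U12, the branch-site snRNA of the minor spliceosome, did not pass the test (Rnu12, 27.5 and 26.1 CPM with 4-OHT, against 24.9 and 30.9 CPM untreated). Nor did the telomerase RNA Terc, at 19.6 and 17.8 CPM with 4-OHT, against 18.5 and 17.2 CPM untreated. Of 8 RNAs made by RNA polymerase III, Rn7sk, which holds back transcription elongation, rose by 0.37 and Rpph1, the RNA of RNase P, by 0.44. Tex14, a germ cell gene whose span on chromosome 11 (87405065 to 87555823) holds Rnu1a1, rose by 2.33 on the log2 scale, and reads of the 2 genes may not be fully separated.

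Most Integrator subunits that passed the test were lower. Of 15 SOSS and Integrator genes other than the deleted ones, 8 fell (53.3%), 2 rose (13.3%) and 5 did not pass, with a median log2 change of -0.14. Of all tested genes 18.2% fell and 21.0% rose. Cpsf3l, the former symbol of the catalytic subunit Ints11, had 27.3 and 26.3 CPM with 4-OHT, against 41.0 and 39.0 CPM untreated (log2 change -0.58, SE 0.0652, adjusted p = 4.14e-07). Ints3, the SOSS scaffold, had 55.5 and 62.5 CPM with 4-OHT, against 75.2 and 73.3 CPM untreated (log2 change -0.33, adjusted p = 2.75e-05). Both were lower in each induced library. Ints4, which forms part of the cleavage module, fell by 0.27 and Ints2 by 0.21. Inip, the third SOSS subunit, rose by 0.36, with 38.5 and 38.8 CPM in induced cells, against 30.8 and 29.4 CPM in untreated cells. Vwa9, the former symbol of Ints14, rose by 0.21, a call lost without untreated library 7 (adjusted p = 0.117). Without that library 4 of the 15 genes fell, and 5 fell without either of the 4-OHT libraries.

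Protein components of the spliceosome were more often higher. Of 46 genes for proteins of the small nuclear ribonucleoproteins (snRNPs), 19 rose (41.3%) and 4 fell (8.70%), with a median log2 change of 0.12. Txnl4a, a component of the U5-containing tri-snRNP, rose to 83.9 and 82.6 CPM with 4-OHT, against 47.9 and 46.3 CPM untreated (log2 change 0.82, SE 0.0510, adjusted p = 8.80e-11). Rnpc3, which joins U11 and U12 in the minor spliceosome, rose by 0.76, the tri-snRNP protein gene Prpf3 by 0.73 and Snrpa1, a U2 snRNP protein gene, by 0.66. Over all tested genes the difference of changes was passed by 12.0% in the higher and 11.7% in the lower direction. The difference of changes against Cre-negative cells was passed by 16 of the 46 in the higher direction (10 without Cre-negative untreated library 1) and 7 in the lower (4 without Cre-positive untreated library 7), and was 0.77 for Txnl4a. Among 29 SR and hnRNP genes, whose products steer splice site choice, 8 rose (27.6%) and 6 fell (20.7%), shares close to the 21.0% and 18.2% of all tested genes. Without untreated library 8 the count that rose was 4, and without 4-OHT library 11 it was 5. Tra2a, an activator of exon inclusion, rose by 0.59, and Hnrnpul2 fell by 0.49.

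Of the 39 gene lists described, that of genes induced by interferon had the largest share of members that rose. Type I interferon acts through a complex that holds IRF9, binds a DNA motif with paired GAAA repeats and switches on antiviral genes. Of 50 such genes tested 44 rose, with a median log2 change of 1.54, and 31 of them rose by 2-fold or more. Usp18, which removes ISG15 from proteins and dampens the receptor, had 9.65 and 10.4 CPM with 4-OHT, against 1.18 and 0.934 CPM untreated (log2 change 3.22, SE 0.176, adjusted p = 1.39e-11). Isg15, a ubiquitin-like protein gene, had 9.23 and 12.2 CPM with 4-OHT, against 1.46 and 1.77 CPM untreated (log2 change 2.73, SE 0.190). Gbp3, a guanylate-binding protein gene, averaged 12.6 ± 1.2 CPM with 4-OHT and 1.86 ± 0.013 CPM untreated (SD, n = 2 each) (log2 change 2.76, SE 0.154). No induced library overlapped an untreated one for these 3 genes, which remained at low levels throughout. Xaf1, a pro-apoptotic gene, rose by 3.00, Oasl2 of the oligoadenylate synthetase family by 2.95, Ifi44 by 2.92 and the antiviral GTPase gene Mx2 by 2.54. Ifit1, which binds RNA caps of foreign RNA, rose by 2.13. Irf9 itself had 52.5 and 53.7 CPM with 4-OHT, against 22.4 and 22.4 CPM untreated, a log2 change of 1.24.

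The rise of the interferon genes was also seen without Cre. In Cre-negative cells 46 of the 50 rose, with a median log2 change of 2.04, and Usp18 had 10.2 and 9.71 CPM with 4-OHT, against 0.661 and 0.574 CPM untreated. The difference of changes was passed by 2 genes in the higher and 23 in the lower direction, beside 12.0% and 11.7% of all tested genes. Its median over the list was -0.57. By DESeq2 or without Cre-positive untreated library 7, 15 passed in the lower direction. For Irf9 it was -0.51 (SE 0.103, adjusted p = 0.000887) and for Isg15 -1.44 (SE 0.411, adjusted p = 0.0133), a call lost without Cre-negative untreated library 2 (adjusted p = 0.108) or Cre-positive untreated library 8 (adjusted p = 0.0585). For Usp18 it was -0.79 and did not pass (adjusted p = 0.101). In Cre-positive cells in ethanol, 26 of the 50 were higher than in untreated cells, with a median log2 change of 0.62. Antigen presentation by MHC class I, which interferon also raises, showed 9 of 16 genes higher. B2m, the light chain of these molecules, had 469 and 481 CPM with 4-OHT, against 336 and 328 CPM untreated (log2 change 0.52), and its difference of changes was -0.29. Tap1, which carries peptides into the endoplasmic reticulum, had 1.39 and 1.53 CPM with 4-OHT, against 0.354 and 0.295 CPM untreated (log2 change 2.14).

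The promoters of the interferon genes can be read for the motif that their factors bind. The letters GAAANNGAAA were searched on both strands in the 300 bases around each RefSeq gene start (250 before, 50 after, GRCm38.p6). They were in 20 of 35 matched interferon genes (57.1%) and in 19 of the 30 that rose (63.3%), against 3.58% of 10409 tested genes with a promoter and 3.44% of all 32851 promoters. Isg15 (chr4:156200769-156201068, minus strand) and Ifit1 (chr19:34640639-34640938, plus strand) are printed because they hold the motif on opposite strands. Capitals mark matches found without overlap, and TTTCNNTTTC is the same motif read on the other strand. In the Isg15 promoter a further match overlaps the marked ones. A match describes the letters and says nothing of binding in these cells.
Isg15 promoter: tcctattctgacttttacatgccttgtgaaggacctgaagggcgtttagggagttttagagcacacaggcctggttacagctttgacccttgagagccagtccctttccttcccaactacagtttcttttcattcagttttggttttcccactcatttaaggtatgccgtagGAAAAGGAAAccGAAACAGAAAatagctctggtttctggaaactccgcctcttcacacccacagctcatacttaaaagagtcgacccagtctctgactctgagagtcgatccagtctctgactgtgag
Ifit1 promoter: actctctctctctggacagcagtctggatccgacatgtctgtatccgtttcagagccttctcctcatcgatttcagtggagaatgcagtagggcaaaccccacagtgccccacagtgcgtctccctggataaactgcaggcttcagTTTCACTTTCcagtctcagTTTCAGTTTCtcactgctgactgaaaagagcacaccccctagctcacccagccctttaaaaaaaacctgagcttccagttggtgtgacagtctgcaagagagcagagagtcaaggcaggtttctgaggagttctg

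Secreted proteases and inflammatory factors rose as well. Matrix metalloproteinases cut collagens and other extracellular proteins, and TIMPs inhibit them. Of 24 genes of both kinds 14 rose (58.3%), with a median log2 change of 0.36, beside 21.0% of all tested genes. In Cre-negative cells the median of these 24 genes was 0.28. The collagenase gene Mmp13 had 33.8 and 33.2 CPM with 4-OHT, against 5.39 and 5.31 CPM untreated (log2 change 2.65, SE 0.0883, adjusted p = 7.69e-15). The stromelysin gene Mmp3 had 746 and 708 CPM with 4-OHT, against 298 and 292 CPM untreated (log2 change 1.30, SE 0.0434). For both genes the groups were far apart and the replicates close. Mmp13 fell in Cre-negative cells, at 0.486 and 0.561 CPM with 4-OHT, against 0.969 and 1.18 CPM untreated, and the difference of changes was 3.68 (SE 0.289, adjusted p = 1.65e-08). The Mmp3 difference also passed (SE 0.0691, adjusted p = 3.00e-10). The inhibitor gene Timp3 rose in both lines, by 0.63 with Cre and by 0.41 without it. Of 21 secreted inflammatory genes 14 rose (66.7%, median 0.48), and the median of the 21 in Cre-negative cells was 0.20. Among them Ptx3, a soluble pattern recognition protein, rose by 0.70 and the chemokine gene Ccl20 by 1.62. Ccl20 had 7.76 and 7.86 CPM with 4-OHT, against 2.60 and 2.46 CPM untreated.

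Matrix genes moved in both directions. Of 42 matrix glycoprotein genes 21 rose and 8 fell (median 0.28). Postn, which encodes the collagen-binding protein periostin, had 1258 and 1139 CPM with 4-OHT, against 669 and 695 CPM untreated, a log2 change of 0.81. In Cre-negative cells it rose further, by 2.39, and the difference of changes was -1.57 (SE 0.0691, adjusted p = 3.69e-12). Mgp, an inhibitor of calcification, rose by 0.84 in Cre-positive cells and had a difference of changes of 1.05. Over the 42 genes the difference was passed by 8 in the higher and 9 in the lower direction, beside 12.0% and 11.7% of all tested genes. Thbs1, a matrix protein gene whose product activates latent TGF-beta, had 12102 and 12018 CPM with 4-OHT, against 9838 and 9761 CPM untreated, a log2 change of 0.30. Of 25 collagen genes 12 rose (48%) and 5 fell (20%). Without 4-OHT library 11 or by DESeq2 6 rose, and without untreated library 8 the count was 7. Col8a1 rose by 0.74, and the type VI collagen gene Col6a3 fell by 0.54 and by 0.62 in Cre-negative cells. The integrin gene Itga8, a receptor for matrix proteins, had 54.0 and 53.7 CPM with 4-OHT, against 19.5 and 21.1 CPM untreated, with a difference of changes of 2.34.

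Genes of the actin cytoskeleton and the early response to serum also rose in most cases. Of 24 contractile genes and targets of the YAP coactivator 16 rose and 4 fell (median 0.34), and Acta2, smooth muscle actin, rose by 0.53. Immediate-early genes, which respond to growth factors within minutes, had 24 of 36 higher and 4 lower, and 1 lower without untreated library 7. The orphan receptor gene Nr4a1 had 33.6 and 32.7 CPM with 4-OHT, against 19.3 and 17.4 CPM untreated (log2 change 0.85, SE 0.0840). Ereg, an EGF family ligand gene, rose by 0.51. P2rx7, an ATP-gated ion channel gene, averaged 11.7 ± 0.93 CPM with 4-OHT and 2.04 ± 0.38 CPM untreated (SD, n = 2 each, log2 change 2.53), and its difference of changes was 0.03. Serpinb6b, a serine protease inhibitor gene, rose by 2.40 and had a difference of changes of 3.28, at levels under 3 CPM. Cxxc5, a CpG-binding protein gene, rose to 4.56 and 4.63 CPM, against 0.747 and 0.737 CPM untreated.

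**Figure D2:**
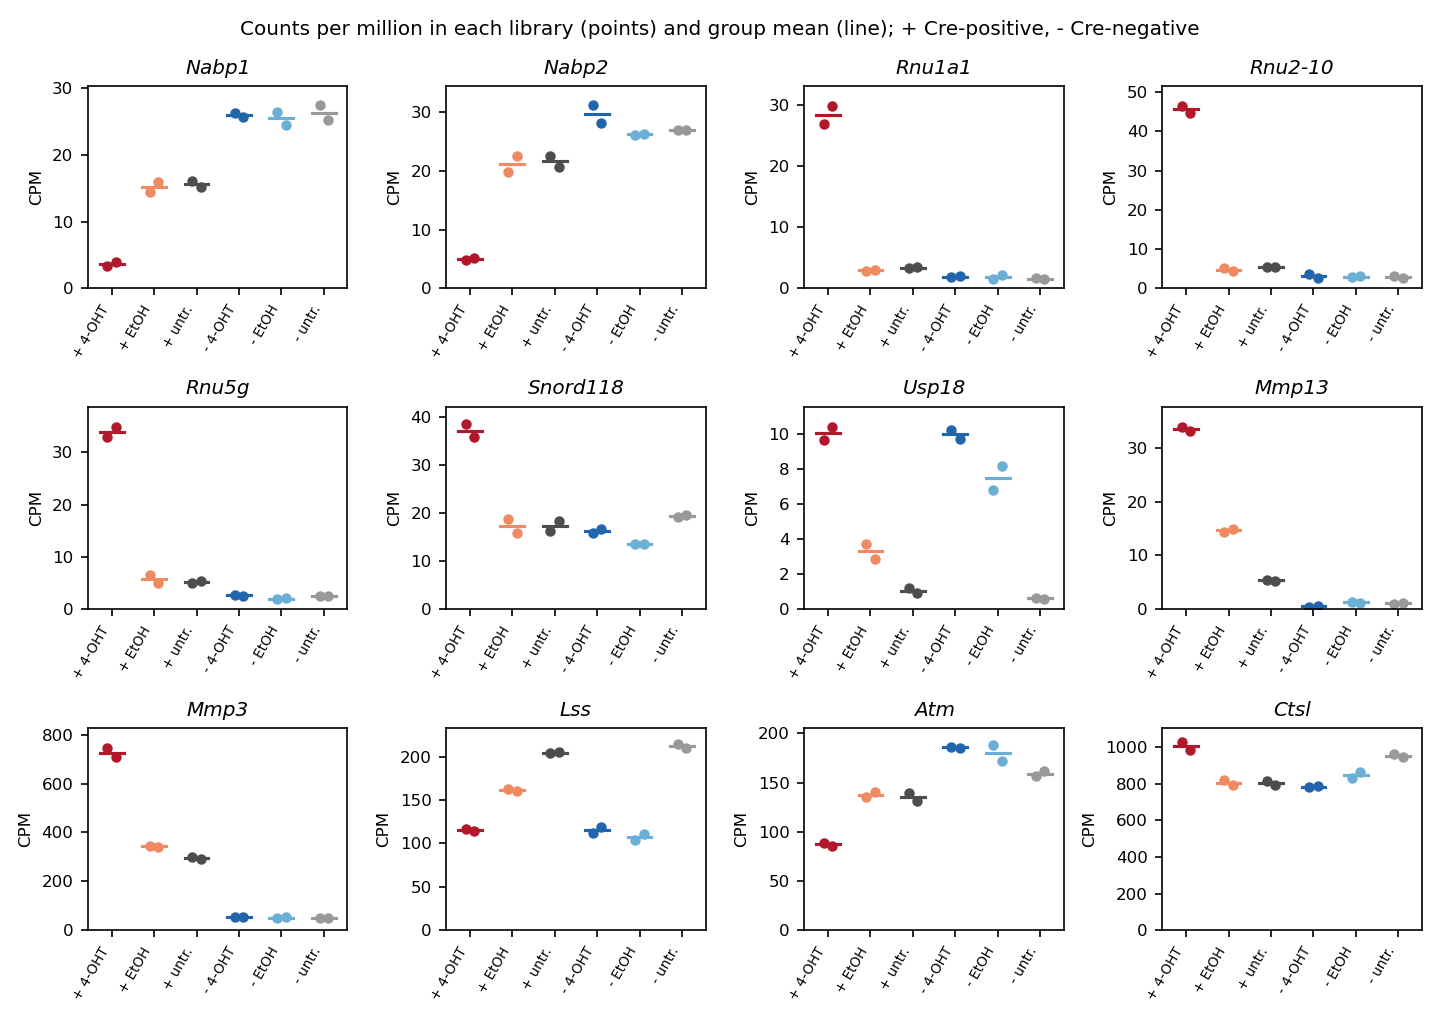
CPM (y axis) of 12 genes in each library (points) with the group mean (line), for Cre-positive (+) and Cre-negative (-) cells with 4-OHT, with ethanol (EtOH) and untreated (untr.). Nabp1 and Nabp2 are low and Rnu1a1, Rnu2-10 and Rnu5g high in the Cre-positive 4-OHT libraries, while Usp18 is high with 4-OHT in both lines.

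The genes of cholesterol synthesis had the largest share of members that fell, apart from the deleted genes, among the lists. Enzymes of cholesterol synthesis are switched on together by SREBF2 when sterols are scarce. Of 30 cholesterol genes 24 fell, with a median log2 change of -0.38. Lss, which folds squalene epoxide into the sterol rings, had 117 and 114 CPM with 4-OHT, against 204 and 205 CPM untreated (log2 change -0.82, SE 0.0413, adjusted p = 4.01e-12). Nsdhl, a later enzyme of the pathway, had 34.6 and 34.5 CPM with 4-OHT, against 66.9 and 66.5 CPM untreated. Mvd, which makes isopentenyl diphosphate, fell by 0.86 and the sterol reductase gene Tm7sf2 by 1.18. Each of these 4 genes was lower in both induced libraries. The member that rose was Npc2, a carrier of lysosomal cholesterol that works outside synthesis (log2 change 0.37). In Cre-negative cells 22 of the 30 fell, with a median of -0.58. Of the 30, 12 passed the difference of changes in the higher and 5 in the lower direction, beside 12.0% and 11.7% of all tested genes. The median difference was 0.11, and for Lss it was 0.05 (adjusted p = 0.579). Of 31 fatty acid and lipid droplet genes 19 fell and 4 rose (median -0.27). The count that rose was 1 without 4-OHT library 11, and 2 without untreated library 8 or by DESeq2. Scd2, a desaturase gene, had 688 and 735 CPM with 4-OHT, against 1187 and 1165 CPM untreated. The desaturase gene Fads1 fell by 0.64, and Acss2, which makes acetyl-CoA from acetate, by 1.19.

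With 4-OHT against untreated, glycolysis and oxidative stress genes also had more members that fell than rose. Of 37 genes of glycolysis and the hypoxia response 17 fell and 3 rose (median -0.21), and 1 rose by DESeq2 or without untreated library 7 or 4-OHT library 11. In ethanol 17 of the 37 were lower and 1 higher than untreated, and with 4-OHT 8 were higher and 9 lower than in ethanol. The median of the 37 in Cre-negative cells with 4-OHT was -0.12. Pkm, pyruvate kinase, fell by 0.42. Genes controlled by NRF2, the regulator of the oxidative stress response, had 7 of 26 higher (26.9%) and 10 lower (38.5%). Of all tested genes 21.0% were higher and 18.2% lower. In ethanol 1 of the 26 was higher and 10 lower than untreated, beside 8.11% and 6.84% of all tested genes. With 4-OHT 15 were higher and 2 lower than in ethanol, beside 21.1% and 17.2%. The median of the 26 in Cre-negative cells with 4-OHT was -0.13. Nqo1, a quinone reductase gene, had 137 and 137 CPM with 4-OHT, against 214 and 212 CPM untreated. Aldh3a1, an aldehyde dehydrogenase gene, had 1.84 and 1.96 CPM with 4-OHT, against 5.07 and 6.05 CPM untreated (log2 change -1.54, SE 0.158). It fell in Cre-negative cells too, by 1.82. Outside these lists the sheddase gene Adam8 fell by 1.55, the mitochondrial thioredoxin reductase gene Txnrd2 by 1.43, Tmcc3 by 1.23 and Ampd3, an AMP deaminase gene, by 1.08. Adam8 was below 7 CPM in all 4 libraries and was at 42.6 and 45.1 CPM in Cre-negative cells with 4-OHT. Its difference of changes was -1.45, beside the Cre-positive change of -1.55.

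More genes of DNA replication and repair fell than rose in the induced cells. Of 45 S phase genes 23 fell and 21 did not pass, with a median log2 change of -0.19. Uhrf1, which carries DNA methylation through replication, had 141 and 132 CPM with 4-OHT, against 218 and 210 CPM untreated (log2 change -0.65, SE 0.0424). Pole, the catalytic subunit of the leading-strand polymerase, fell by 0.52. Of 40 genes of homologous recombination, the Fanconi pathway and the checkpoint 22 fell, 5 rose and 13 did not pass (median -0.18). The checkpoint kinase gene Atm had 89.1 and 85.7 CPM with 4-OHT, against 140 and 131 CPM untreated (log2 change -0.63, SE 0.0477, adjusted p = 1.37e-09). Atr, its partner at stalled forks, had 63.7 and 64.0 CPM with 4-OHT, against 102 and 101 CPM untreated. Fancd2, the monoubiquitinated core of the Fanconi pathway, had 35.6 and 33.3 CPM with 4-OHT, against 49.1 and 49.4 CPM untreated. For all 3 genes the induced libraries were lower without overlap.

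In Cre-negative cells these repair genes went the other way where they passed: 14 of the 40 rose, and 8 without Cre-negative untreated library 2 or 4-OHT library 6. The difference of changes was passed by 25 genes in the lower direction and 2 in the higher, and was -0.85 for Atm (SE 0.0660, adjusted p = 1.31e-08), -0.77 for Atr and -0.97 for Fancd2. For S phase genes it was passed by 22 in the lower direction, beside 11.7% of all tested genes. G2 and mitosis genes were split in Cre-positive cells, with 7 of 38 higher (18.4%) and 10 lower (26.3%), and 17 lower with upper-quartile scaling, in a fit of the 4 compared libraries or without ethanol library 3. Without Cre-negative 4-OHT library 5 or 6, 16 were lower. Ube2c, a ubiquitin-conjugating enzyme gene of mitotic exit, rose by 0.55 and the cyclin gene Ccnb2 fell by 0.53. In Cre-negative cells 30 of these 38 rose, beside 10.1% of all tested genes, and 25 had a difference of changes in the lower direction, beside 11.7%. Of 29 p53 target genes 12 rose (41.4%) and 7 fell (24.1%), with a median of 0.09, beside 21.0% and 18.2% of all tested genes. In Cre-negative cells the median of these 29 genes was 0.21, and their median difference of changes was -0.22.

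Histone and lysosome genes were more often higher than lower in Cre-positive cells. For all tested genes in Cre-negative cells, 10.1% rose and 9.14% fell. The difference of changes was passed by 12.0% of all tested genes in the higher and 11.7% in the lower direction. Replication-dependent histone genes make messages that end in a stem-loop in place of a poly(A) tail. Of 61 such genes 33 rose and 2 fell (median 0.15), and 38 rose in Cre-negative cells, 24 without Cre-negative 4-OHT library 6. Of the 61, 3 passed the difference of changes in the higher and 11 in the lower direction (median -0.04), with 7 in the lower direction without Cre-negative 4-OHT library 6 or Cre-positive 4-OHT library 11. Hist1h4i, an H4 gene, had 74.9 and 78.0 CPM with 4-OHT, against 42.8 and 41.2 CPM untreated (log2 change 0.86, SE 0.0506). Hist1h1c, a linker histone gene, rose by 0.52. Of 39 lysosome and autophagy genes 23 rose and 6 fell (median 0.20). The autophagosome protein gene Map1lc3a had 74.9 and 77.9 CPM with 4-OHT, against 44.7 and 44.7 CPM untreated (log2 change 0.77). The protease gene Ctsl rose by 0.32 and Lamp1, a lysosomal membrane protein gene, by 0.30. In Cre-negative cells 4 of the 39 rose (2 without untreated library 2 or 4-OHT library 5) and 12 fell, and the difference of changes was passed by 16 in the higher and 4 in the lower direction, at 0.61 for Ctsl.

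**Figure D3:**
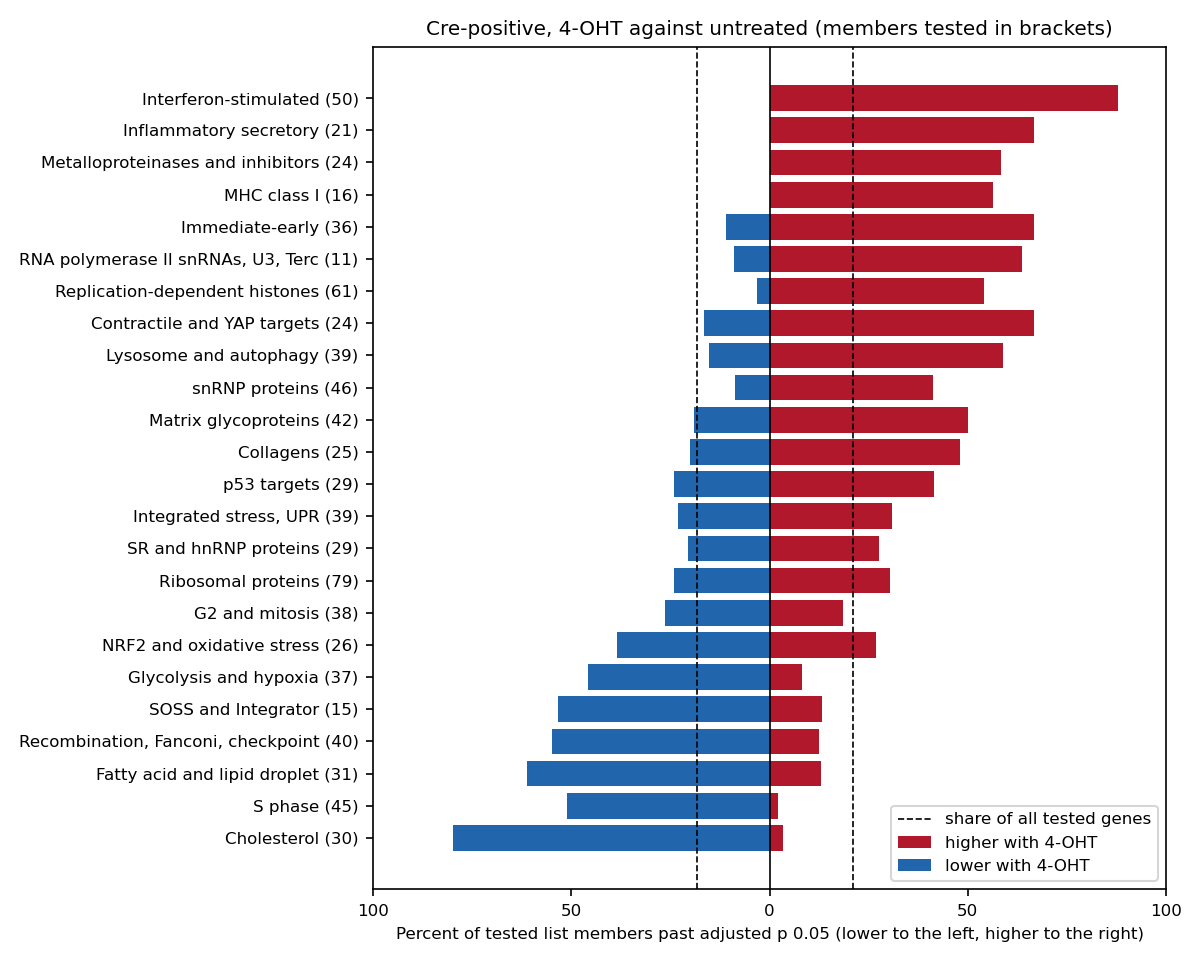
Share of the tested members of each gene list that was higher (bars to the right) or lower (bars to the left) in Cre-positive cells with 4-OHT than untreated, in percent. Dashed lines mark the shares over all tested genes, 21.0% higher and 18.2% lower, and the bars range from 44 of 50 interferon genes higher to 24 of 30 cholesterol genes lower.

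Across genes, the changes in the lines with and without Cre were shared in part. The comparisons share no library. Of the 3697 genes that were higher in Cre-positive cells, 871 (23.6%) were also higher in Cre-negative cells, where they were 49.0% of the 1779 called higher. Of the 3204 lower genes 650 (20.3%) were also lower there, 40.4% of the 1609. Opposite calls were made for 277 genes that were higher in Cre-positive and lower in Cre-negative cells and for 222 the other way round. Over 12509 genes with an average log2 CPM of at least 1, Pearson's r between the changes was 0.35 and Spearman's rho 0.27, a description across genes that are not independent. The difference of changes itself was passed in the higher direction by 1613 (43.6%) of the genes higher in Cre-positive cells and in the lower direction by 1550 (48.4%) of those lower, beside 12.0% and 11.7% of all tested genes. These shares are not independent of the first call, since both tests use the 4 Cre-positive libraries.

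**Figure D4:**
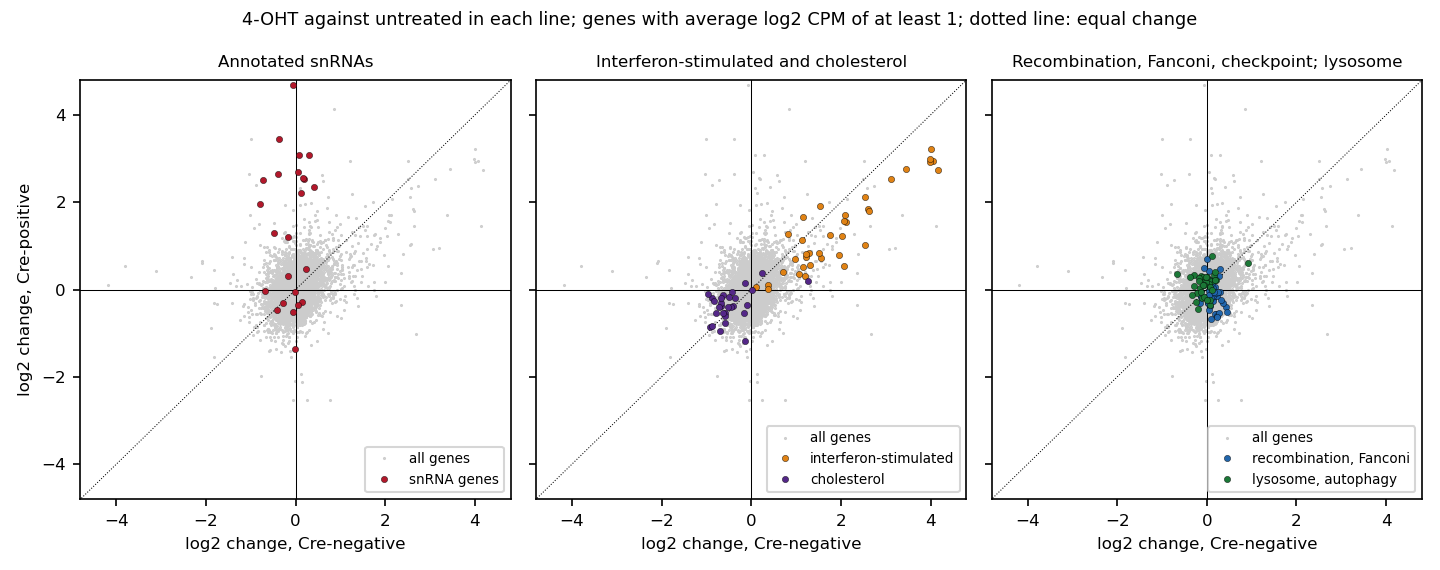
The log2 change with 4-OHT against untreated in Cre-positive cells (y axis) against that in Cre-negative cells (x axis), for genes with an average log2 CPM of at least 1 (grey) and for the named lists (coloured), with a dotted line of equal change. The 16 risen snRNA genes above that level lie between -0.80 and 0.41 on the x axis, and the interferon genes run to the upper right, with medians of 1.54 (Cre-positive) and 2.04 (Cre-negative).

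The ethanol libraries divide the change against untreated cells into steps, each sharing libraries with the whole, so their values are given side by side only. In ethanol 1428 genes (8.11%) were higher and 1204 (6.84%) lower than untreated, and with 4-OHT 3709 (21.1%) were higher and 3027 (17.2%) lower than in ethanol. For Rnu1a1 the log2 change was -0.18 for ethanol against untreated and 3.27 for 4-OHT against ethanol. For Nabp1 these steps were -0.04 and -2.05. Immediate-early genes lay in the first step, with 23 of 36 higher in ethanol than untreated, and Nr4a1 changed by 0.80 and then by 0.05. Nqo1 changed by -0.80 and then by 0.16, and Aldh3a1 by -1.23 and then by -0.31. For Mmp13 both steps were upward, 1.46 and 1.19, as for Usp18, 1.62 and 1.60. Among cholesterol genes 18 of 30 were lower in ethanol than untreated and 16 lower with 4-OHT than in ethanol, and Lss changed by -0.34 and -0.49. Atm changed by 0.02 and -0.66. The replicates of each group stayed close for these genes, and what in the ethanol step comes from solvent and what from time in culture cannot be told apart.

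**Figure D5:**
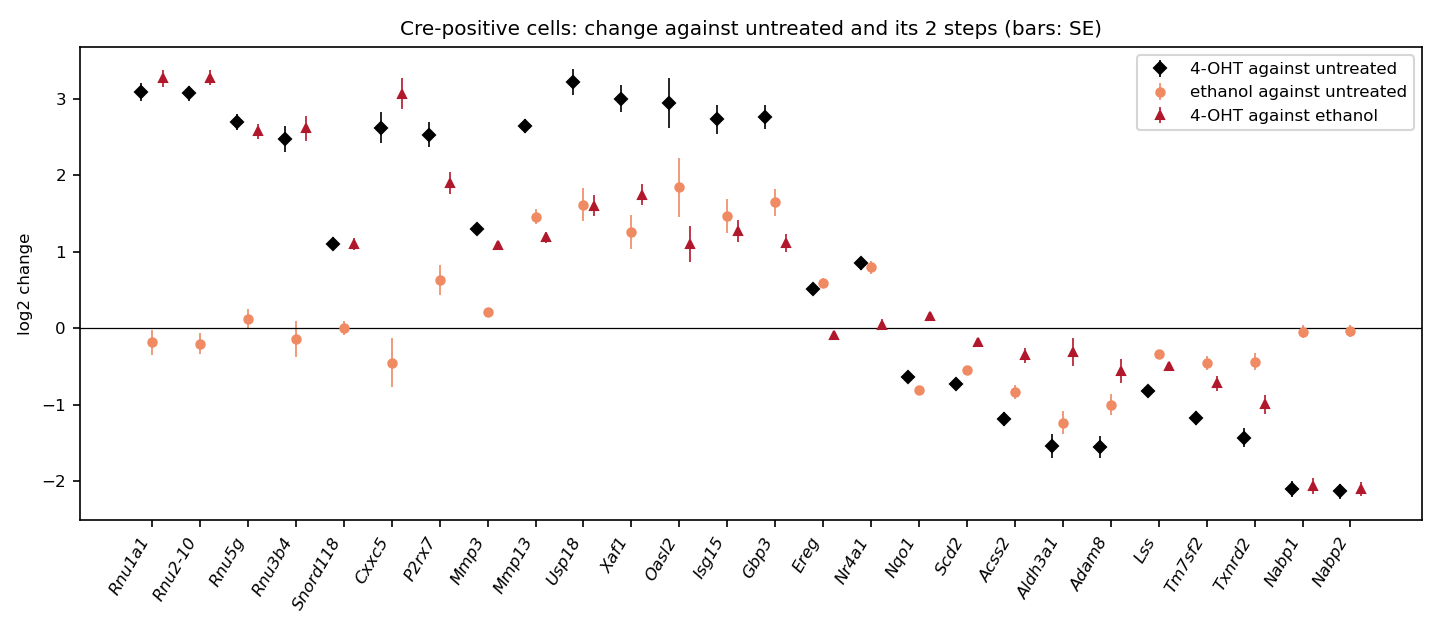
Log2 change (y axis, bars are SE) of 26 genes in Cre-positive cells for 4-OHT against untreated (diamonds), ethanol against untreated (circles) and 4-OHT against ethanol (triangles). The snRNA genes and Nabp1 and Nabp2 have circles near 0, Mmp13 and the interferon genes have both steps above 0, and for Nr4a1, Ereg and Nqo1 the circle lies close to or beyond the diamond.

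Several measures of the libraries moved with the groups. The mitochondrial genome took 1.83% and 1.92% of counts with 4-OHT, against 1.47% and 1.47% untreated, and its large ribosomal RNA mt-Rnr2 rose by 0.67. Of 13 mitochondrial genes tested 3 rose (23.1%) and 4 fell (30.8%), beside 21.0% and 18.2% of all tested genes, with a median log2 change of -0.04. In Cre-negative cells the mitochondrial share was 2.22% and 2.00% with 4-OHT, against 1.69% and 1.62% untreated. The median log2 change fell with exonic length, from 0.08 in the shortest of 8 length classes of protein-coding genes to -0.04 in the longest, while ethanol against untreated gave -0.06 and 0.06. Lars2 was called higher (log2 change 0.80) on 4-OHT library 11, with 0.478% and 0.259% of counts in induced cells against 0.217% and 0.219% untreated, and its adjusted p was 0.212 without that library and 0.0634 by DESeq2. Of 5 endothelial markers tested 3 rose, with a summed level of 65.4 to 67.0 CPM with 4-OHT, against 41.6 to 42.3 CPM untreated, mostly from Erg, while Cdh5 had at most 1 count. Of 4 haematopoietic markers tested Cd34 fell, and the sum was 48.3 to 51.6 CPM with 4-OHT, against 71.9 to 72.2 CPM untreated, with Ptprc at most at 1 count and Adgre1 and Hbb-bt at 0 in all 4 libraries. Of 7 adipocyte and cartilage markers 3 rose, Fabp4 among them by 0.85, with a sum of 28.6 to 32.6 CPM with 4-OHT, against 18.9 to 22.6 CPM untreated. Neural markers had 3 of 6 higher and 1 lower, at 221 to 224 CPM with 4-OHT, against 225 to 233 CPM untreated. Without untreated library 7 or 4-OHT library 12, 1 adipocyte and cartilage marker and 1 neural marker rose. Of 2 skeletal muscle markers tested Acta1 rose, with 302 and 254 counts with 4-OHT, against 102 and 79 untreated, and the sum was 9.89 to 9.94 CPM with 4-OHT, against 5.01 to 5.23 CPM untreated, with Myog, Myf5, Myf6 and Pax7 at 0. Of 9 epithelial markers 3 were tested and their changes did not pass, though 1 was called higher in 4 alternatives. Cdh1 had 38 and 29 counts with 4-OHT, against 12 and 13 untreated, the sum was 1.83 to 2.04 CPM with 4-OHT, against 1.57 CPM in both untreated libraries, and Epcam and Cldn4 were at 0 in all 4 libraries. The part of these shifts in the changes above was not tested.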

How the data were processed

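RNA of 12 libraries was sequenced as paired 75-base reads on a NextSeq from a TruSeq Stranded Total RNA preparation with Ribo-Zero Gold, which removes ribosomal RNA, per the labels' protocols. The authors deposited a table of gene counts, which per the submitters' processing notes came from cutadapt 1.11, STAR 2.5.2a and RSEM 1.2.30 on GRCm38. The values are RSEM expected counts that the authors deposited as whole numbers. The sources used here do not give the annotation or the strand setting, so overlapping genes may share reads. Each column name is the title of its sample, which gives the group.

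Counts were fitted in edgeR 4.0.16 (R 4.3.3) with TMM scaling, filterByExpr and 1 mean for each of 6 groups over 12 libraries, so that all groups share the spread, and tested by quasi-likelihood F tests, 2-sided, with Benjamini-Hochberg adjustment at 0.05. The biological coefficient of variation was 3.44%. Alternatives were DESeq2 1.42.0, RLE and upper-quartile factors, no count filter, a fit of the compared groups alone, and each library left out. The code was tested on simulated counts.

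The comparison, the 39 gene lists and the rule for named genes were chosen with earlier results of these data known. Named genes are the deleted ones, the largest changes in each direction (up to 15), up to 4 members of each list by smallest p, all SOSS, Integrator and RNA polymerase II snRNA genes, the largest line differences, the largest changes shared by the lines, the genes with the most or least ethanol step, and the largest differences of CPM. Genes outside that rule are named by choice after their values were seen: the Gm-numbered copies, Snord13 and Npc2. Coordinates are from GENCODE M21 for 16875 tested genes with a single match by symbol, and promoters from RefSeq on GRCm38.p6. Replicates of a group differed by 2.37 to 4.60 times the counting noise (chi-square per degree of freedom), so the 2 count columns of a group were not copies of each other. Whether they come from separate cultures cannot be told from this spread.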

Additional observations from a re-analysis of the deposited data

Results flagged for a closer look

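For 83 of the 112 named genes tested for it, the change with 4-OHT against untreated differed between Cre-positive and Cre-negative cells by edgeR's quasi-likelihood test of the difference (adjusted p under 0.05 over all tested genes). Many of these genes were named for a large Cre-positive change or a large difference between the lines, so this share was raised by the choice. Over all tested genes 23.8% passed. The values below are differences of log2 changes, Cre-positive minus Cre-negative. What sets the lines apart besides Cre was not tested.

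For the deleted genes and the SOSS and Integrator genes the difference was -2.08 for Nabp1, -2.26 for Nabp2, -0.33 for Ints3, -0.48 for Cpsf3l and -0.37 for Ints4. For U1, U2 and U5 copies and 2 other annotated snRNAs it was 2.80 for Rnu1a1, 2.99 for Rnu2-10, 2.66 for Rnu5g, 4.75 for Gm24830, 1.94 for Gm22068, -0.44 for Gm22513, 2.76 for Gm26316, 3.24 for Gm22265, 1.79 for Gm23287, -1.34 for Gm24407 and -0.41 for Gm24265. For other small RNAs it was 1.84 for Rnu3b1, 2.42 for Rnu3b2, 1.74 for Rnu3b3, 1.87 for Rnu3b4, 1.36 for Snord118, 1.55 for Snord13, 0.27 for Rn7sk and 0.50 for Rpph1, and it was 2.23 for Tex14. For genes of snRNA transcription, the spliceosome and splicing regulation it was 0.45 for Snapc4, -0.46 for Ice2, 0.77 for Txnl4a, 0.76 for Snrpa1, 0.62 for Prpf3, 0.83 for Rnpc3, 0.44 for Tra2a and -0.49 for Hnrnpul2.

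Interferon and MHC class I genes had negative differences, -0.98 for Xaf1, -1.44 for Isg15, -0.51 for Irf9 and -0.29 for B2m. Among secreted, matrix and adhesion genes the difference was 3.68 for Mmp13, 1.20 for Mmp3, 0.23 for Timp3, 3.28 for Serpinb6b, 2.34 for Itga8, -1.57 for Postn, 1.05 for Mgp, 0.70 for Col8a1, 1.43 for Ccl20 and 0.34 for Thbs1. Among metabolic and oxidative stress genes it was -0.73 for Acss2, -1.04 for Tm7sf2, -0.25 for Nsdhl, -0.40 for Scd2, -0.36 for Fads1, -1.11 for Txnrd2, -0.68 for Ampd3 and 0.39 for Nqo1. Replication, mitosis and repair genes gave -0.55 for Uhrf1, -0.68 for Pole, 0.33 for Ube2c, -0.48 for Ccnb2, -0.85 for Atm, -0.77 for Atr and -0.97 for Fancd2. Histone and lysosome genes gave 0.75 for Hist1h4i, 0.30 for Hist1h1c, 0.67 for Map1lc3a, 0.61 for Ctsl and 0.43 for Lamp1. Immediate-early and other genes gave 0.69 for Nr4a1, 0.71 for Ereg, 2.04 for Cxxc5, -1.45 for Adam8, -1.05 for Tmcc3, 1.38 for Lars2 and 1.45 for Fabp4. Of the genes given only after the report, the difference was 0.28 for Hspa5, 0.42 for Manf, -0.47 for Cars, 0.69 for Hoxd8, 0.28 for Hoxa10, -0.78 for Kcnq1ot1, 0.76 for Rpl10, -0.33 for Rps20 and -3.70 for Blnk.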

How the results depend on the processing

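No named gene tested changed the sign of a called change under any alternative run, while the share of called genes that were higher was 53.6% and moved to between 48.6% and 54.8%. Counts at least 2-fold and called were 248 higher and 101 lower by DESeq2, against 481 and 223 by edgeR, and its counts of all called genes in each comparison stayed within 1.5 times of edgeR's, while counts within lists that moved more are given beside them. Leaving out each library in turn, called genes in the comparison of 4-OHT with untreated Cre-positive cells numbered 5323 to 7125, those at least 2-fold lower 140 to 252, those in Cre-negative cells 2164 to 3673 and those in ethanol against untreated 1423 to 2619. The lowest of these came without untreated library 7, untreated library 8, Cre-negative 4-OHT library 5 and ethanol library 4, in that order. A fit of ethanol against untreated gave 1425 without untreated library 7 and 1521 without untreated library 8, and 2238 genes were called in Cre-negative cells without untreated library 2. The log2 change of Nabp1 ranged from -2.21 to -1.98 and that of Nabp2 from -2.20 to -2.08. Where a group was left with 1 library, that library is assumed to vary like the other groups. Among named genes the calls of Vwa9, Rnu3b2, Lars2, Snapc4 and Phax were lost in some settings, and so was the difference between the lines for Rnu3b2, Xaf1, Isg15, Tmcc3, Nsdhl, Hoxa10, Blnk and Snapc4. Rnu12 was called lower without untreated library 7 (log2 change -0.22, adjusted p = 0.0410). No paired analysis was possible because the library numbers in the labels run from 1 to 12 and no number is shared between groups. Levels under 1 CPM rest on few counts and set the precision for the U6 copies and Rnu3b2.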

Other observations

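Other gene groups moved by smaller amounts in the comparison of 4-OHT with untreated Cre-positive cells. Of 39 genes of the integrated stress and unfolded protein responses 12 rose (30.8%) and 9 fell (23.1%). Hspa5, the main chaperone of the endoplasmic reticulum, had 1342 and 1376 CPM with 4-OHT, against 1089 and 1064 CPM untreated, and Manf, a secreted factor of the same response, rose by 0.43, while the cysteine tRNA synthetase gene Cars fell by 0.44. Of 79 ribosomal protein genes 24 rose (30.4%) and 19 fell (24.1%), and 11 fell without 4-OHT library 12. Rpl10 had 63.9 and 67.3 CPM with 4-OHT, against 40.2 and 38.7 CPM untreated, and Rps20 had 224 and 220 CPM with 4-OHT, against 294 and 277 CPM untreated. Of 16 genes for snRNA transcription and export 4 rose (25.0%) and 3 fell (18.8%), beside 21.0% and 18.2% of all tested genes: Snapc4, a subunit of the factor that binds snRNA promoters, rose by 0.35 and the snRNA export adaptor gene Phax by 0.23, and Ice2, of the little elongation complex, fell by 0.30. Without untreated library 8, 2 rose and 1 fell, with the calls of Snapc4 (adjusted p = 0.0617) and Phax (adjusted p = 0.0581) lost, and 1 fell without 4-OHT library 11 or by DESeq2.

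Of 18 Hox genes tested, which mark position along the body and limb, 6 rose and 1 fell (not called by DESeq2 or without untreated library 7, 4-OHT library 11 or 4-OHT library 12), with Hoxa10 higher by 0.58 and Hoxd8 by 0.59. Of 16 imprinted genes 5 rose (31.25%) and 4 fell (25%), beside 33.3% and 5.56% of the 18 Hox genes. Of all tested genes 21.0% rose and 18.2% fell. H19, a growth-restraining RNA, had 2.63 and 1.96 CPM with 4-OHT, against 0.629 and 0.590 CPM untreated, and also rose in Cre-negative cells by 2.35. The antisense RNA Kcnq1ot1 fell by 0.91 and the receptor gene Igf2r by 0.47. The count of imprinted genes that rose was 2 without untreated library 7 and 3 without 4-OHT library 11. Blnk, a B cell adaptor gene, had 2.94 and 3.03 CPM in Cre-positive cells with 4-OHT, against 5.98 and 6.14 CPM untreated, and its log2 change was -1.02 there and 2.68 in Cre-negative cells.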
